A study of Mus musculus with 16 samples.

Results

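The genes described here are 10 genes of the turnover of extracellular matrix: 6 matrix metalloproteinases (Mmp2, Mmp3, Mmp9, Mmp13, Mmp14 and Mmp19), 3 tissue inhibitors of metalloproteinases (Timp1, Timp2 and Timp3) and the collagen receptor gene Mrc2. They were taken by gene symbol, all 10 were found, and the tables held 49452 genes in all. The set was chosen by its role and by measured FPKM of these same mice, so the levels of the 10 genes are given as a description. Their calls in fits over all genes are counted below, but nothing is read from them. RNA was sequenced from tdTomato-positive cells sorted from the left lung lobe of 16 male mice, 4 in each of 4 groups. The groups were Acta2-CreERT2; tdTomatoflox mice given saline (Acta2-tdT saline) or bleomycin (Acta2-tdT bleomycin) and Pdgfra-CreERT2; tdTomatoflox mice given saline (Pdgfra-tdT saline) or bleomycin (Pdgfra-tdT bleomycin). All were taken on day 14, at 11 weeks of age, and mice are named by their label number, 1 to 4 with saline and 5 to 8 with bleomycin.

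In both lines tamoxifen switches on the red reporter tdTomato in cells whose Cre transgene, under the Acta2 or the Pdgfra promoter, is active at that time, and the reporter stays on afterwards. Acta2-tdT mice ate tamoxifen food of 400 mg/kg from 5 days after the saline or bleomycin, whereas Pdgfra-tdT mice had 5 injections of 3 mg at 6 weeks of age. All 4 groups thus received tamoxifen, but line and tamoxifen schedule cannot be told apart. A sort by the reporter can also hold different cells in each group. In such bulk samples, fewer cells of a type and less RNA per cell cannot be told apart.

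Matrix metalloproteinases are zinc enzymes that cut collagens, elastin, fibronectin and other proteins outside the cell. Most are secreted as inactive precursors, and Mmp14 is anchored in the plasma membrane, where it cuts collagen and activates the precursor of Mmp2 together with Timp2. The TIMPs bind the active site of these enzymes and block it. Mrc2 (Endo180) takes up collagen fragments and delivers them to lysosomes. In bleomycin-injured lung, deposition and breakdown of matrix both take place, by mesenchymal cells as well as by macrophages and neutrophils.

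The values were FPKM (mapped fragments per length of transcript and per depth of the library). How much of the mapped signal lay on nuclear protein-coding genes differed between mice, with a summed FPKM of 36688 to 60947 in Acta2-tdT saline, 241916 to 466183 in Acta2-tdT bleomycin, 29964 to 61168 in Pdgfra-tdT saline and 29727 to 147467 in Pdgfra-tdT bleomycin. The differences of the members and lists are therefore given as deposited and after scaling each mouse to the same nuclear protein-coding sum (51979, the median of the 16 mice). The scaling moved the median log2 difference of all genes tested from 1.76 to -0.01 for bleomycin against saline in Acta2-tdT. It moved that of Acta2-tdT against Pdgfra-tdT with bleomycin from 1.81 to 0.17. Read counts were not used here and the depth is unknown. The Cufflinks bounds imply, as an approximation, 599424 to 8323505 fragments on genes per mouse.

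The lines were checked by their promoter genes and by markers. Acta2 had 139 to 3211 FPKM in the 8 Acta2-tdT mice and 0.831 to 19.4 in the 8 Pdgfra-tdT mice. Pdgfra had 0.977 to 3.82 FPKM in Pdgfra-tdT mice, and in Acta2-tdT 0.273 to 0.562 with saline and 2.49 to 11.9 with bleomycin. Scaled Pdgfra was 0.535 to 1.33 in Acta2-tdT bleomycin, below the 3.08 to 5.24 of Pdgfra-tdT saline. It overlapped the 0.864 to 2.38 of Pdgfra-tdT bleomycin. The 8 fibroblast markers summed to 7.33 to 57.7 FPKM in Pdgfra-tdT saline and 8.04 to 160.5 in Pdgfra-tdT bleomycin. Their sum was 24.4 to 44.6 FPKM in Acta2-tdT saline, inside the range of Pdgfra-tdT saline. Acta2-tdT bleomycin mice had 1054 to 3205. Col1a1 was under 14 FPKM in every Pdgfra-tdT mouse, and 1.76 to 2.44 in Acta2-tdT saline. The Pdgfra-tdT cells are therefore called by their line and not by a cell type. Pdgfra-tdT saline mouse 3 and bleomycin mouse 5 stood apart by endothelial genes, with 39.1 and 65.9 FPKM of Pecam1 against at most 5.78 in the other Pdgfra-tdT mice. Leukocyte genes were present as well, and Ptprc (CD45) had 12.3 to 26.3 FPKM in Acta2-tdT bleomycin and 0.358 to 2.99 in the other groups. Adgre1, the macrophage marker F4/80, had 2.59 to 19.5 FPKM in Acta2-tdT bleomycin and at most 3.07 elsewhere. The 5 lymphocyte markers summed to at most 9.64 FPKM in any mouse, with Nkg7 at 0 in Pdgfra-tdT bleomycin. The alveolar epithelial gene Sftpc had 0.615 to 221 FPKM across the 16 mice. S100a8, a calprotectin subunit of neutrophils, had 460 to 892 FPKM in the saline mice of Acta2-tdT, 699.7 to 3571 in its bleomycin mice, against 2.22 to 77.1 in Pdgfra-tdT mice. Lyz2, the lysozyme of macrophages and neutrophils, had 35.9 to 174 FPKM in Acta2-tdT saline, 980 to 3974 in Acta2-tdT bleomycin, 24.3 to 69.5 in Pdgfra-tdT saline and 342.5 to 2861 in Pdgfra-tdT bleomycin. Scaling changed the order of these markers between groups. Scaled Lyz2 was 156.9 to 468.9 in Acta2-tdT bleomycin, below the 598.9 to 1454 of Pdgfra-tdT bleomycin. Scaled Ptprc was 1.58 to 3.10 with bleomycin in Acta2-tdT, overlapping the 1.91 to 3.61 of its saline mice, and scaled S100a8 was 82.6 to 571.6 against 619 to 935.7.

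**Figure D1:**
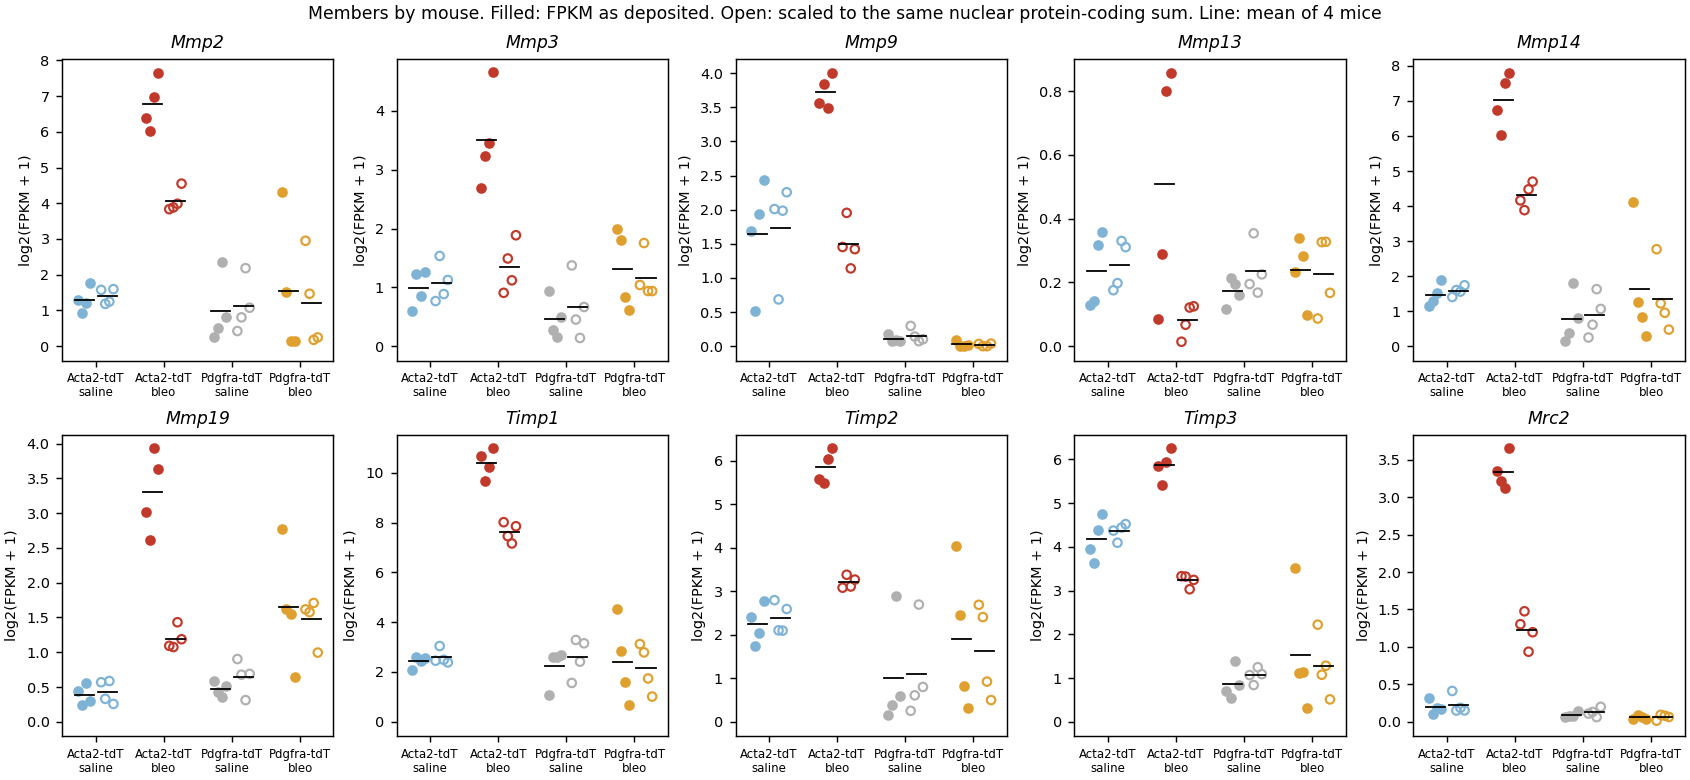
Each panel plots 1 gene as log2(FPKM + 1), with 1 point per mouse and the groups along the x axis. Filled points are FPKM as deposited, open points are scaled to the same nuclear protein-coding sum, and lines are means of 4 mice. Timp1, Mmp2, Mmp14 and Mrc2 are highest in Acta2-tdT bleomycin on both scales, whereas the open points of Timp3 are highest in Acta2-tdT saline.

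Of the 6 metalloproteinases of the set, Mmp2 and Mmp14 had the highest FPKM in each Acta2-tdT bleomycin mouse. Mmp2 (ENSMUSG00000031740, chromosome 8 of GRCm38 from 92827291 to 92853420), gelatinase A, had 1.45, 0.899, 1.31 and 2.38 FPKM in the Acta2-tdT saline mice. With bleomycin, Mmp2 had 82.9, 64.0, 126 and 201 FPKM, so that the groups were far apart. In Pdgfra-tdT, Mmp2 had 0.198, 0.433, 4.17 and 0.770 FPKM with saline and 19.1, 1.85, 0.112 and 0.106 with bleomycin. Those groups overlapped, and the highest values were those of saline mouse 3 and bleomycin mouse 5, the mice with the high Pecam1. Whether endothelial or other cells carried these values was not tested.

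Mmp14 (ENSMUSG00000000957, chromosome 14 from 54431612 to 54441265), the membrane-type enzyme that activates Mmp2, had nearly the same pattern. It had 1.2, 1.44, 1.85 and 2.74 FPKM in Acta2-tdT saline mice and 106, 64.0, 180 and 224 with bleomycin. In Pdgfra-tdT it had 0.108, 0.307, 2.46 and 0.757 FPKM with saline and 16.5, 1.39, 0.797 and 0.222 with bleomycin, again with mouse 3 and mouse 5 on top. Among nuclear protein-coding genes of the same mouse, both genes lay between the percentiles 97.0 and 98.4 in all 4 Acta2-tdT bleomycin mice, and between 81.4 and 88.7 in Acta2-tdT saline. The FPKM ratio of Mmp14 to Mmp2, which no scaling changes, was 0.831 to 1.60 in Acta2-tdT saline and, with bleomycin, 1.0 to 1.43. These ranges overlapped, and both genes differed between the treatments by a similar factor.

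The log2 difference of bleomycin minus saline in Acta2-tdT cells, on the scale of log2(FPKM + 1), was 5.47 (SE 0.42) for Mmp2 and 5.56 (SE 0.44) for Mmp14. After scaling it was 2.66 (SE 0.24) and 2.73 (SE 0.24). Between the lines with bleomycin, Acta2-tdT minus Pdgfra-tdT was 5.23 (SE 0.94) for Mmp2 and 5.39 (SE 0.89) for Mmp14, and 2.85 (SE 0.61) and 2.95 (SE 0.53) after scaling. In the saline groups the same line difference was 0.30 (SE 0.46) for Mmp2 and 0.68 (SE 0.37) for Mmp14, with mice that overlapped. Without Pdgfra-tdT saline mouse 3, one of the mice of high Pecam1, the saline difference of Mmp14 was 1.01. The saline difference of Mmp2 is also larger without mouse 3, which had 4.17 FPKM against at most 0.770 in the other Pdgfra-tdT saline mice.

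Mmp9 (ENSMUSG00000017737, chromosome 2 from 164948219 to 164955850), gelatinase B, is stored in the granules of neutrophils and is also made by macrophages. It had 2.21, 0.429, 2.82 and 4.42 FPKM in Acta2-tdT saline mice and 10.9, 13.4, 10.2 and 15.1 with bleomycin, higher in each bleomycin mouse than in any saline mouse. In Pdgfra-tdT saline mice it had at most 0.132 FPKM, and in bleomycin mice 0.0667, 0, 0 and 0.0155, where the bounds imply at most 4 fragments per mouse. The log2 difference with bleomycin in Acta2-tdT was 2.08 (SE 0.41) as deposited and turned to -0.24 (SE 0.34) after scaling, with groups that overlapped. The line difference with bleomycin was 3.70 (SE 0.33) as deposited and 1.47 (SE 0.20) after scaling. Mmp9 thus separated the lines on both scales, and within Acta2-tdT bleomycin from saline only in the deposited values. In Pdgfra-tdT the treatments overlapped as deposited. After scaling they lay apart, with means of 0.0127 with bleomycin and 0.114 with saline that rest on few fragments.

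The neutrophil markers lay beside Mmp9. The 7 markers summed to 741.6 to 1479 FPKM in Acta2-tdT saline, 1142 to 5699 in Acta2-tdT bleomycin, 21.5 to 46.3 in Pdgfra-tdT saline and 8.77 to 146.8 in Pdgfra-tdT bleomycin, with none at 0 in all mice of a group. After scaling, 5 of the 5 neutrophil markers tested were lower with bleomycin in Acta2-tdT (limma, adjusted p under the threshold), as were 32.5% of all genes. As deposited all 5 were higher, as were 70.4% of all genes. Between the lines with saline, 3 of the 5 tested were higher in Acta2-tdT on both scales (2.72% and 3.02% of all genes were). Scaled Cxcr2 had similar means in both lines with saline, 4.15 in Acta2-tdT and 4.07 in Pdgfra-tdT. In Acta2-tdT saline the sum rests mainly on S100a8, S100a9 and Retnlg, with means of 646.8, 278.5 and 118.1 FPKM. The part of neutrophils in the values of Mmp9 was not tested.

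Mmp3 (ENSMUSG00000043613, chromosome 9 from 7445822 to 7455975), stromelysin 1, cuts proteoglycans and fibronectin and activates other precursors. It had 0.513, 1.34, 0.809 and 1.39 FPKM in Acta2-tdT saline mice and 5.47, 8.42, 9.94 and 24.2 with bleomycin. In Pdgfra-tdT it had 0.916, 0.213, 0.120 and 0.408 FPKM with saline and 3.0, 2.48, 0.778 and 0.524 with bleomycin. The Acta2-tdT groups did not overlap as deposited, with a log2 difference of 2.53 (SE 0.41), and overlapped after scaling, with 0.27 (SE 0.25). The same was seen between the lines with bleomycin, at 2.2 (SE 0.54) and 0.18 (SE 0.32).

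Mmp13 (ENSMUSG00000050578, chromosome 9 from 7272514 to 7283331), an interstitial collagenase, was close to the limit of detection in all mice. It had 0.0946 to 0.282 FPKM in Acta2-tdT saline, 0.0609 to 0.813 in Acta2-tdT bleomycin, 0.0835 to 0.161 in Pdgfra-tdT saline and 0.0703 to 0.266 in Pdgfra-tdT bleomycin. The bounds imply 3 to 43.4 fragments per mouse, and the gene passed the filter in no comparison. It was therefore not tested. After scaling, the Acta2-tdT groups lay apart, at 0.130 to 0.257 with saline and 0.00975 to 0.0907 with bleomycin, values that rest on these few fragments.

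Mmp3 and Mmp13 lie in the cluster of metalloproteinase genes on chromosome 9, and many genes of this cluster are known to carry a site for the transcription factor AP-1 close to their start. RefSeq promoter windows (GRCm38.p6, 250 bases before to 50 after each start) were present for 6 of the 10 genes (Mmp3, Mmp13, Mmp14, Timp1, Timp2 and Timp3) and missing for Mmp2, Mmp9, Mmp19 and Mrc2. The letters TGANTCA, which read the same on both strands, were searched as the AP-1-type motif. They were found in 2 of these 6 (Mmp3 and Mmp13), and in the windows of 8.97% of the 27025 genes in the table. Of the 18 metalloproteinase genes with a window, 8 of the 10 on chromosome 9 held the motif and 0 of the 8 on other chromosomes, and Mmp8 and Mmp27 were those of the cluster without it. Such a match describes the letters of the window only. The last 100 bases before the start are shown for both members and for Mmp10 and Mmp12, whose values follow, because the motif lies at 35 to 63 bases before each start; capitals mark the motif.
Mmp13 (chr9:7272414-7272513, plus strand): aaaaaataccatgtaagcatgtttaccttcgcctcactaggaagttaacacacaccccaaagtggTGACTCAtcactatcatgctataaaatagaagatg
Mmp3 (chr9:7445722-7445821, plus strand): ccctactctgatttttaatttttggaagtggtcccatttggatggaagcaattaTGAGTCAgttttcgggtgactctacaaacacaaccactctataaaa
Mmp10 (chr9:7502242-7502341, plus strand): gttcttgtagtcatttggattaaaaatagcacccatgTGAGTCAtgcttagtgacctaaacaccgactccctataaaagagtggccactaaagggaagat
Mmp12 (chr9:7347274-7347373, plus strand, the downstream of its 2 listed starts): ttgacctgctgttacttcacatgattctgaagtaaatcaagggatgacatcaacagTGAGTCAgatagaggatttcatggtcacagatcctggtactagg

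**Figure D2:**
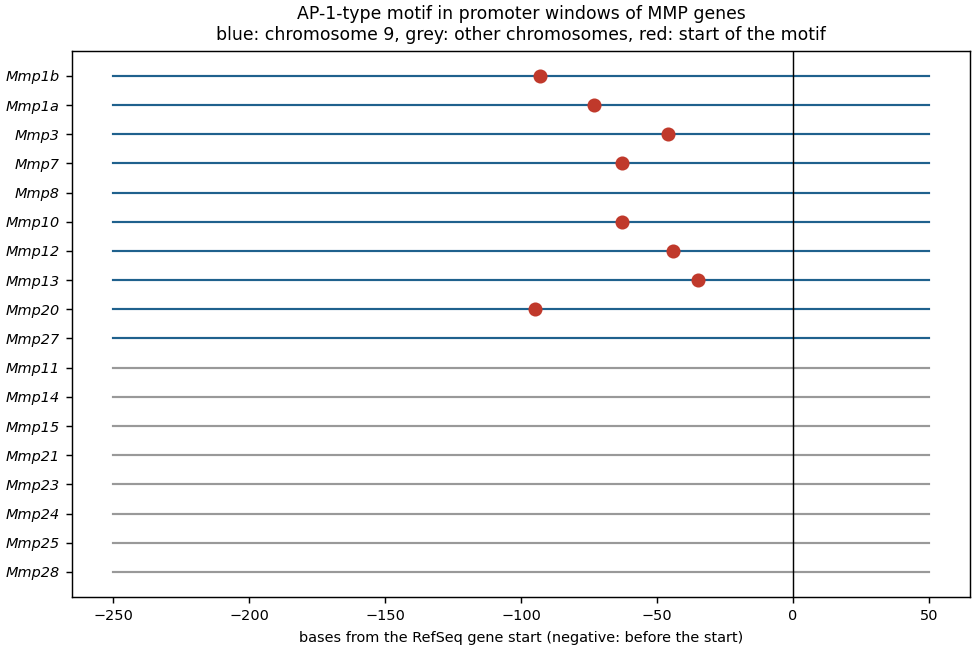
Each line is the promoter window of 1 metalloproteinase gene, from 250 bases before to 50 bases after the RefSeq start on the x axis, and each red point is the start of the AP-1-type motif. Of 10 genes on chromosome 9, 8 hold the motif, 35 to 95 bases before the start, and none of 8 genes on other chromosomes does; of genes with 2 starts, the window with the motif is drawn.

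Genes with the motif did not share 1 pattern. Mmp10, stromelysin 2, had 0.0252 to 0.133 FPKM in Acta2-tdT saline, 8.73, 2.91, 3.79 and 5.76 in Acta2-tdT bleomycin, and at most 0.175 in any Pdgfra-tdT mouse. It rose with bleomycin in Acta2-tdT by a log2 of 2.49 (limma, adjusted p = 2.49e-05), and by 0.71 after scaling (adjusted p = 0.0025). Mmp10 passed the filter only through the bleomycin mice, which fixed the direction of the deposited difference, so no support is drawn from its call. Mmp12, the macrophage elastase, had 0.467 to 1.23 FPKM in Acta2-tdT saline and 25.5, 37.2, 194 and 44.3 with bleomycin. It rose by 4.96 (adjusted p = 2.61e-05) and by 2.25 after scaling (adjusted p = 0.00215). Mmp12 was also seen in Pdgfra-tdT bleomycin mice, with 61.0, 29.4, 18.4 and 0.779 FPKM against 0.349 to 1.11 with saline, a log2 difference of 3.19 (limma, adjusted p = 0.791). In the same 4 mice Lyz2 had 2861, 1522, 1034 and 342.5 FPKM, in the same order as Mmp12 and as the nuclear protein-coding sums (147467, 54402, 44154 and 29727). After scaling, mouse 6 led in both, with 21.5, 28.05, 21.7 and 1.36 for Mmp12 and 1008, 1454, 1217 and 598.9 for Lyz2.

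The AP-1 subunits themselves differed as follows. With bleomycin in Acta2-tdT, 6 of the 6 tested subunits of 7 rose as deposited and 1 after scaling (70.4% and 24.5% of all genes did), with a median log2 difference of 2.36 and -0.01 against 1.76 and -0.01 over all genes tested. The one that rose on both scales was Fosl1, which encodes Fra-1, with 0.0870 to 0.280 FPKM in Acta2-tdT saline, 10.7, 7.67, 14.8 and 13.5 in Acta2-tdT bleomycin and at most 0.173 in Pdgfra-tdT mice. Its log2 difference was 3.37 (adjusted p = 1.14e-05), and 1.10 after scaling (adjusted p = 5.29e-05). Like Mmp10, Fosl1 and Fosl2 passed the filter only through the bleomycin mice, so no support is drawn from their calls. Junb rose by 3.53 (adjusted p = 6.53e-05), and Jun by 2.55 (adjusted p = 0.000724). After scaling, Junb stood at 0.70 (adjusted p = 0.079), Jun at -0.25 (adjusted p = 0.502), and Fos fell by 0.98 (adjusted p = 0.0461). In the saline groups, 2 of the 4 subunits tested were higher in Acta2-tdT than in Pdgfra-tdT on both scales (2.72% of all genes were as deposited and 3.02% after scaling), Fos by 3.62 (adjusted p = 0.00749) and Jund by 1.43 (adjusted p = 0.0168).

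Mmp19 (ENSMUSG00000025355, chromosome 10 from 128790953 to 128800824) encodes a secreted enzyme that cuts basement membrane proteins. It had 0.353, 0.181, 0.478 and 0.228 FPKM in Acta2-tdT saline mice and 7.07, 5.15, 14.4 and 11.4 with bleomycin. In Pdgfra-tdT it had 0.501, 0.346, 0.284 and 0.425 FPKM with saline and 5.86, 2.08, 1.93 and 0.568 with bleomycin. As deposited, all 4 bleomycin mice of this line were above its saline mice, which held for no other member. The order of these mice was that of their nuclear protein-coding sums. Scaled, they had 2.06, 1.98, 2.27 and 0.993, all still above the saline mice (0.241 to 0.869), and the part of macrophages was not tested. In Acta2-tdT the log2 difference was 2.92 (SE 0.31), and 0.76 (SE 0.14) after scaling. The line difference with bleomycin was 1.65 (SE 0.54) as deposited and turned to -0.28 (SE 0.27) after scaling, and these groups overlapped on both scales. Without Acta2-tdT bleomycin mouse 7 the deposited difference was 1.44. The end of Mmp19 overlaps Tmem198b on the opposite strand, which had up to 13.8 FPKM in Acta2-tdT bleomycin, and the counting is not known to use strand, so part of the reads of either gene may belong to the other.

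The inhibitors changed in composition as well as in level. Timp1 (ENSMUSG00000001131, chromosome X from 20870166 to 20874735), a soluble inhibitor known to be induced in injured tissue, had 3.27, 5.10, 4.40 and 4.94 FPKM in Acta2-tdT saline mice and 1608, 811, 1203 and 2060.5 with bleomycin. In every Acta2-tdT bleomycin mouse it stood at the percentile 99.9 of nuclear protein-coding genes. In Pdgfra-tdT it had 1.12, 5.06, 5.10 and 5.47 FPKM with saline and 21.8, 6.17, 1.99 and 0.582 with bleomycin, groups that overlapped. The log2 difference with bleomycin was 7.96 (SE 0.40) in Acta2-tdT and 0.15 (SE 0.84) in Pdgfra-tdT, and 5.03 (SE 0.31) and -0.44 (SE 0.69) after scaling. The saline groups of both lines had nearly equal means, 4.43 ± 0.831 (SD, n = 4) and 4.19 ± 2.05 FPKM (SD, n = 4). Timp1 lies within Syn1 on the opposite strand, which had at most 0.825 FPKM in any mouse.

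Timp2 (ENSMUSG00000017466, chromosome 11 from 118301069 to 118355506), which inhibits Mmp2 and also forms the complex in which Mmp14 activates it, had 4.34, 2.33, 3.12 and 5.91 FPKM in Acta2-tdT saline mice and 46.7, 43.9, 64.8 and 77.6 with bleomycin. In Pdgfra-tdT it had 0.110, 0.303, 6.45 and 0.516 FPKM with saline and 15.5, 4.51, 0.762 and 0.237 with bleomycin. Mice 3 and 5 were again the highest of their groups. The log2 difference with bleomycin in Acta2-tdT was 3.60 (SE 0.37), and 0.81 (SE 0.23) after scaling, with groups apart on both scales. The line difference with bleomycin was 3.94 (SE 0.82), and 1.58 (SE 0.52) after scaling. Between the saline groups, which overlapped, it was 1.24 (SE 0.61), and without Pdgfra-tdT saline mouse 3 it was 1.87. BC100451 lies within Timp2 on the same strand and had at most 2.36 FPKM.

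Timp3 (ENSMUSG00000020044, chromosome 10 from 86300372 to 86349506), the inhibitor that binds to the matrix, differed between the Acta2-tdT groups on both scales, in opposite directions. It had 14.4, 11.4, 19.7 and 25.8 FPKM in Acta2-tdT saline mice and 56.5, 41.9, 60.8 and 76.1 with bleomycin, a log2 difference of 1.70 (SE 0.39). Scaled to the same nuclear protein-coding sum, it had 16.1 to 21.96 FPKM with saline and 7.17 to 9.05 with bleomycin, a log2 difference of -1.13 (SE 0.23). The groups were apart in opposite order on each scale. Its percentile among nuclear protein-coding genes lay at 98.7 to 98.9 in saline mice and 94.5 to 95.9 in bleomycin mice.

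Timp3 also separated the lines with saline, as did Mmp9, which did not pass the filter there. Pdgfra-tdT saline mice had 0.632, 0.457, 1.62 and 0.783 FPKM, all below the Acta2-tdT mice, and the log2 difference of Acta2-tdT minus Pdgfra-tdT was 3.30 (SE 0.35), the same after scaling to 2 decimals (3.30, SE 0.33). With bleomycin, Pdgfra-tdT mice had 10.4, 1.16, 1.22 and 0.244 FPKM, and the line difference was 4.35 (SE 0.73), and 1.96 (SE 0.41) after scaling. The 6 smooth muscle markers, which also express in the wall of vessels and airways, summed to 322 to 746 FPKM in Acta2-tdT saline and 6.14 to 17.6 in Pdgfra-tdT saline, and all 6 were higher in Acta2-tdT on both scales, as were 2.72% of all genes on the deposited and 3.02% on the scaled values. Their part in the values of Timp3 was not tested. Timp3 lies within Syn3 on the opposite strand, which had at most 1.04 FPKM.

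**Figure D3:**
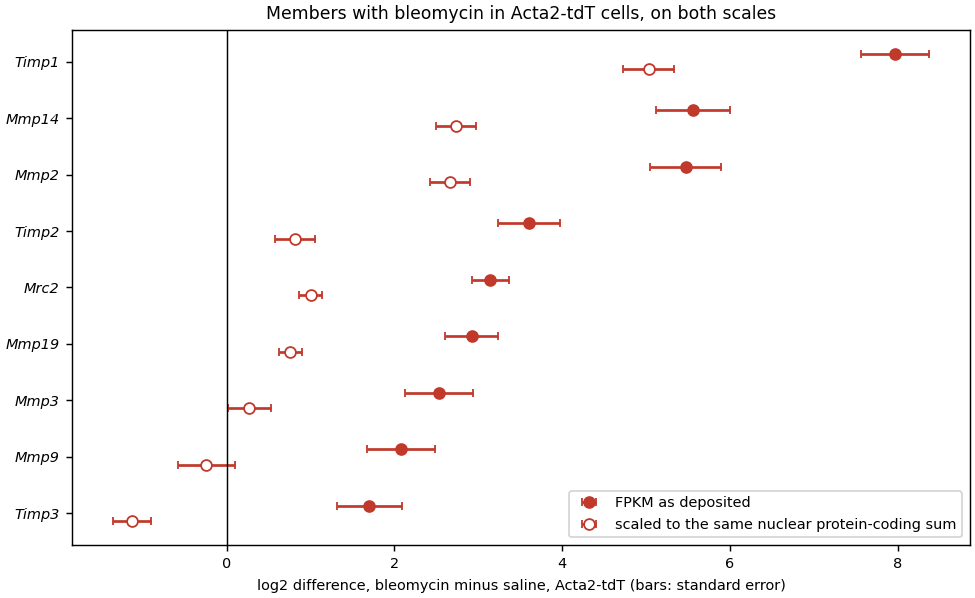
Each row is 1 of the 9 members that passed the filter, and the x axis is the log2 difference of bleomycin minus saline in Acta2-tdT cells (4 mice each) with its standard error. Filled points are FPKM as deposited, all between 1.70 and 7.96, and open points are scaled, from -1.13 for Timp3 to 5.03 for Timp1.

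Mrc2 (ENSMUSG00000020695, chromosome 11 from 105292646 to 105351139), the collagen uptake receptor, was low in all groups but Acta2-tdT bleomycin. It had 0.241, 0.0774, 0.131 and 0.130 FPKM in Acta2-tdT saline mice and 9.17, 8.29, 7.74 and 11.6 with bleomycin. In Pdgfra-tdT it had 0.0455 to 0.103 FPKM with saline and 0.0258 to 0.0695 with bleomycin, where the bounds imply 1.19 to 2.04 fragments per mouse. The log2 difference with bleomycin in Acta2-tdT was 3.14 (SE 0.22), and 1.0 (SE 0.14) after scaling, with groups apart on both scales. The line difference with bleomycin was 3.27 (SE 0.31), and 1.17 (SE 0.16) after scaling.

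The counts of members must be read against all genes. With bleomycin in Acta2-tdT, 9 of the 10 members were tested and all 9 were called higher as deposited (adjusted p under 0.05), where 70.4% of the 12523 genes tested were called higher. After scaling, 6 were called higher, where 24.5% of all genes were, and Timp3 was called lower, where 32.5% of all genes were. Between the lines with bleomycin, all 9 tested were called higher in Acta2-tdT, where 71.0% of the 11995 genes tested were, and 7 after scaling, where 17.2% were. With saline, 5 members were tested and Timp3 was called higher in Acta2-tdT on both scales, where 2.72% of 8153 genes were as deposited and 3.02% after scaling. In Pdgfra-tdT, only Timp1 and Timp3 were tested with bleomycin against saline and neither was called, where 0.124% of 7275 genes were called in either direction, and 0.151% after scaling. Mmp19 and Mrc2 passed the filter in Acta2-tdT only through the bleomycin mice. Between the lines with bleomycin, Mmp9 and Mrc2 passed it only through the Acta2-tdT mice. Their deposited direction was thus fixed by the filter. The members were also chosen on these levels, so nothing is read from these counts. Their median log2 difference with bleomycin in Acta2-tdT was 3.14 against 1.76 over all genes tested, and 0.82 against -0.01 after scaling.

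The effect of bleomycin in Acta2-tdT minus that in Pdgfra-tdT (the interaction of line and treatment) was largest for Timp1 among the members, with a log2 of 7.81 (SE 1.01), and 5.47 (SE 0.76) after scaling. It was 3.17 (SE 0.22) for Mrc2, and 1.07 (SE 0.15) after scaling. Of the 9 members tested, 7 were called higher as deposited, where 36.6% of 16605 genes were, and 2 (Timp1 and Mrc2) after scaling, where 1.39% were. Mrc2 passed the filter only through Acta2-tdT bleomycin, so no support is drawn from its call. For Mmp2 the interaction was 4.93 (SE 1.10) and 2.57 (SE 0.76) after scaling, and for Mmp14 4.71 (SE 0.99) and 2.26 (SE 0.63). For Timp3 it was 1.05 (SE 0.81) as deposited and -1.34 (SE 0.50) after scaling. Without the Pdgfra-tdT mice 3 (saline) and 5 (bleomycin) the deposited interactions of Timp2 and Timp3 were 2.79 and 1.54.

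The balance of proteases to inhibitors was taken as the summed FPKM of the 6 metalloproteinases over that of the 3 TIMPs, a ratio within a mouse that no scaling changes. In Acta2-tdT saline mice the MMP sum was 5.82, 4.39, 7.52 and 11.4 FPKM and the TIMP sum 21.99, 18.8, 27.3 and 36.6. In Acta2-tdT bleomycin mice the MMP sum was 212, 155, 341 and 476 FPKM and the TIMP sum 1711, 897, 1329 and 2214. The TIMP sum thus exceeded the MMP sum in every Acta2-tdT mouse, by 3.20 to 4.28 times with saline and by 3.89 to 8.07 times with bleomycin. These are RNA sums of the members, not protein or activity. They leave out Mmp8 (2.21 to 6.48 FPKM with saline), Mmp23 (1.83 to 6.27), Timp4 (0.454 to 8.54) and, with bleomycin, Mmp12 (25.5 to 194). The size of the excess therefore depends on the genes chosen. The log2 ratio averaged -1.89 ± 0.17 in saline mice and -2.43 ± 0.45 in bleomycin mice (SD, n = 4 each), a difference of -0.54 between groups that overlapped at 1 bleomycin mouse (mouse 7). The size of this difference depended on the choice of genes and scale, at -1.12 with all metalloproteinase and TIMP genes of the table and -1.28 from mean log2 values, and it was -0.35 without bleomycin mouse 5.

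In Pdgfra-tdT mice both sums were below those of every Acta2-tdT bleomycin mouse, and in bleomycin mouse 5 both were above those of every Acta2-tdT saline mouse. The MMP sum was 1.94, 1.52, 7.24 and 2.53 FPKM with saline and 44.7, 8.06, 3.83 and 1.51 with bleomycin, and the TIMP sum 1.87, 5.82, 13.2 and 6.77 with saline and 47.7, 11.8, 3.97 and 1.06 with bleomycin. Mmp12, which is not in the MMP sum, had 61.0, 29.4 and 18.4 FPKM in bleomycin mice 5, 6 and 7, above their TIMP sums. In bleomycin mouse 8 it had 0.779. In Pdgfra-tdT the log2 ratio of the sums averaged -1.04 ± 0.85 in saline mice and -0.05 ± 0.43 in bleomycin mice (SD, n = 4 each). With bleomycin the 4 Acta2-tdT mice (-3.01 to -1.96) lay below the 4 Pdgfra-tdT mice (-0.56 to 0.50), and with saline the groups of both lines overlapped. The difference between the lines with bleomycin was -2.38, and -3.79 with all metalloproteinase and TIMP genes. Without Timp1 and Mmp14, the inhibitor and the protease of highest mean, it was -0.30, and bleomycin minus saline in Acta2-tdT turned from -0.54 to 2.33.

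**Figure D4:**
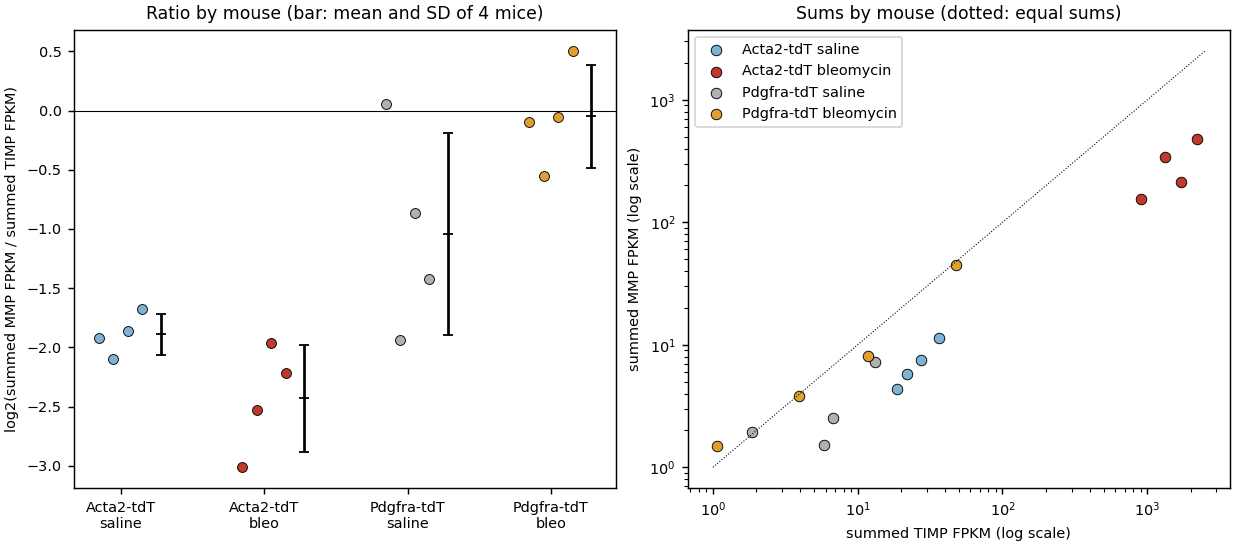
The left panel plots the log2 ratio of summed MMP to summed TIMP FPKM for each mouse, with the mean and SD of 4 mice beside it. The right panel plots both sums on log axes, with a dotted line where they are equal: all 8 Acta2-tdT mice lie below the line, and the 4 Pdgfra-tdT bleomycin mice lie near it. The sums hold the members only, without Mmp12.

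The composition of the inhibitors separated the Acta2-tdT groups. Timp3 made up 60.5% to 72.4% of the TIMP sum in Acta2-tdT saline mice and 3.31% to 4.67% in Acta2-tdT bleomycin mice. Timp1 made up 13.5% to 27.2% with saline and 90.4% to 94.0% with bleomycin. In Pdgfra-tdT mice Timp1 made up 38.7% to 86.9% with saline and 45.8% to 54.8% with bleomycin, groups that overlapped, and Timp3 never exceeded 33.9%. These shares come from 1 library each and do not depend on the scaling.

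The composition of the proteases differed as well. Mmp2 and Mmp14 together gave the larger part of the MMP sum in Acta2-tdT bleomycin mice, with 36.8% to 42.2% for Mmp2 and 41.3% to 52.8% for Mmp14. In Acta2-tdT saline mice Mmp2 gave 17.4% to 24.9% and Mmp14 20.7% to 32.8%, below every bleomycin mouse. Mmp9 gave 9.77% to 38.7% with saline and 2.99% to 8.61% with bleomycin. In Pdgfra-tdT bleomycin mice Mmp19 gave 13.1% to 50.3%, a share of small sums.

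**Figure D5:**
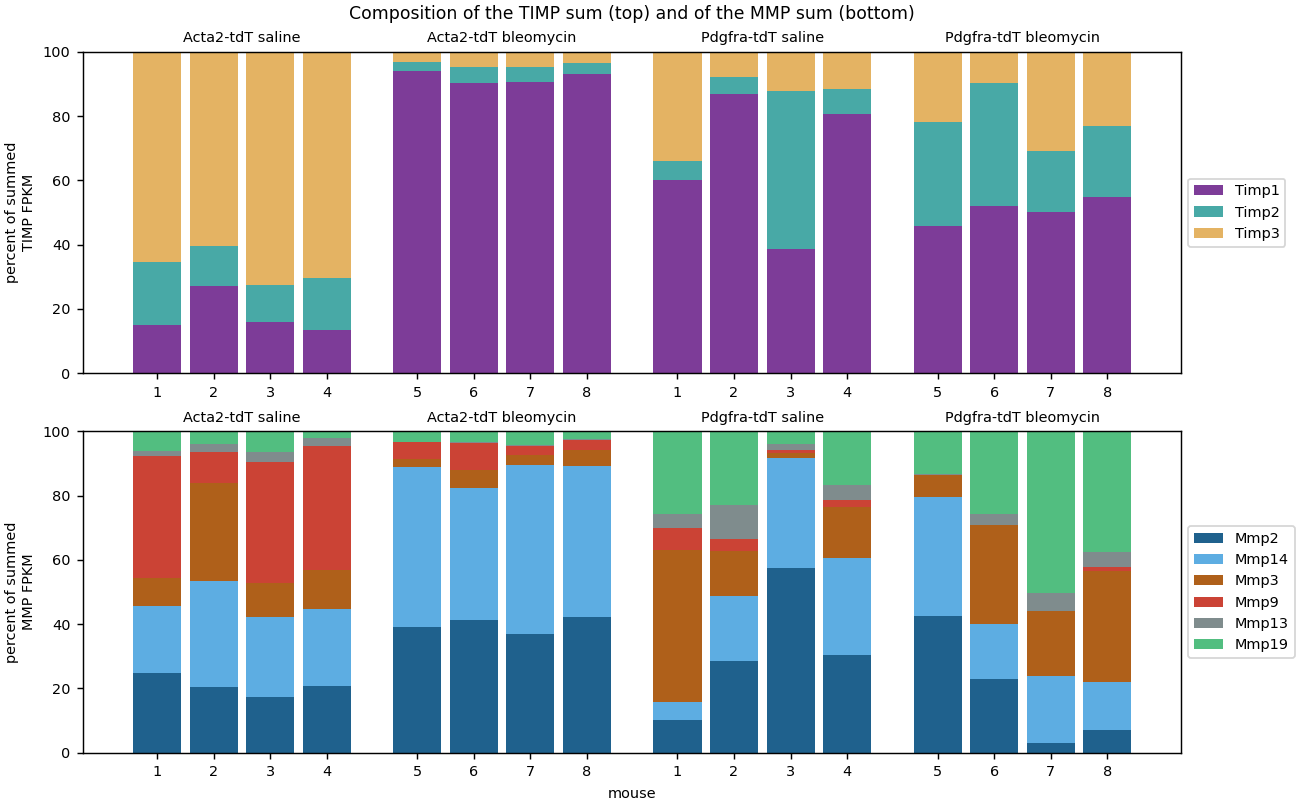
Stacked bars give the percent of the summed TIMP FPKM (top) and of the summed MMP FPKM (bottom) by gene, with 1 bar per mouse and the groups side by side. The top row turns from Timp3 in Acta2-tdT saline (60.5% to 72.4%) to Timp1 in Acta2-tdT bleomycin (90.4% to 94.0%).

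Single pairs of enzyme and inhibitor differed in direction. The FPKM ratio of Mmp2 to Timp2 was 0.333 to 0.420 in the Acta2-tdT saline mice, against 1.46 to 2.59 after bleomycin. Mmp14 to Timp2 ranged from 0.277 to 0.618, against 1.46 to 2.88 after bleomycin. For Mmp9 to Timp1 the saline mice had 0.0840 to 0.895 and the bleomycin mice 0.00675 to 0.0165. Thus relative to their partner, Mmp2 and Mmp14 were higher and Mmp9 was lower in each Acta2-tdT bleomycin mouse than in any saline mouse. In Pdgfra-tdT, Mmp2 to Timp2 ranged from 0.647 to 1.79 in saline mice and from 0.147 to 1.23 in bleomycin mice, which overlapped.

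Other metalloproteinases were mostly low, with 4 of 17 tested in Acta2-tdT. All 4 rose with bleomycin as deposited and 3 after scaling, where 70.4% and 24.5% of all genes did, with a median log2 difference of 3.29 and 1.0 against 1.76 and -0.01 over all genes. Beside Mmp12 and Mmp10, Mmp23, a membrane-bound enzyme, rose from 1.83 to 6.27 FPKM across the saline mice to 52.8 to 113 with bleomycin, by a log2 of 4.09 (adjusted p = 1.81e-05), and by 1.30 after scaling (adjusted p = 0.00201). Mmp8, the collagenase of neutrophils, had 2.21 to 6.48 FPKM with saline and 17.8 to 28.8 with bleomycin, a log2 difference of 2.17 (adjusted p = 0.000238), and of -0.41 after scaling (adjusted p = 0.24). Mmp8 thus turned with the scale as Mmp9 did. Between the lines with bleomycin, 3 of the 4 tested were higher in Acta2-tdT (71.0% of all genes were), Mmp23 by 5.49 (adjusted p = 9.39e-05), Mmp8 by 3.45 (adjusted p = 0.000207) and Mmp10 by 2.50 (adjusted p = 0.00012). After scaling 2 of them were (17.2% of all genes), and Mmp8 stood at 0.91 (adjusted p = 0.15). Mmp10 passed the filter of this comparison only through the Acta2-tdT mice. In the saline groups neither of 2 tested was called as deposited, and Mmp23 was after scaling (higher in Acta2-tdT, as 3.02% of all genes), at 1.49 (adjusted p = 0.0362). Mmp15, a membrane-type enzyme, and Mmp28 had 8.80 and 4.55 FPKM in Pdgfra-tdT bleomycin mouse 5 and at most 2.74 and 0.489 in any other mouse.

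Of 14 further inhibitors and regulators, 11 were tested with bleomycin in Acta2-tdT, and 10 rose as deposited (70.4% of all genes did), with a median log2 difference of 3.46. After scaling 9 rose and 1 fell (24.5% and 32.5% of all genes did), with a median of 0.86. Serpine2, protease nexin-1, which inhibits thrombin and plasminogen activators, had 4.80 to 14.2 FPKM with saline and 347 to 903 with bleomycin, a log2 difference of 5.92 (adjusted p = 1.14e-05), and of 2.99 after scaling (adjusted p = 2.58e-05). Plat, the tissue plasminogen activator, rose by 4.56 (adjusted p = 1.44e-05), and by 1.86 after scaling (adjusted p = 6.62e-05). Bsg, basigin or EMMPRIN, a membrane protein known to induce metalloproteinases, rose by 4.17 (adjusted p = 1.96e-05), and by 1.27 after scaling (adjusted p = 0.0025). The one that fell was Timp4, the fourth inhibitor of the family, with -0.16 as deposited (adjusted p = 0.785) and -1.47 after scaling (adjusted p = 0.0146). With bleomycin in both lines all 11 were higher in Acta2-tdT as deposited and 3 after scaling (71.0% and 17.2% of all genes were), among them Serpine2 by 5.68 (adjusted p = 0.000217) and Plat by 2.35 (adjusted p = 0.00142). With saline, and with bleomycin in Pdgfra-tdT, 3 were tested and none was called on either scale.

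Of 12 genes of collagen uptake and breakdown inside the cell, 8 were tested with bleomycin in Acta2-tdT. All 8 rose as deposited (70.4% of all genes did), with a median log2 difference of 4.01, and 6 after scaling (24.5% of all genes did), with a median of 1.48. The lysosomal proteases Ctsd, Ctsb and Lgmn rose by 5.25 (adjusted p = 2.24e-05), 4.88 (adjusted p = 2.96e-05) and 4.62 (adjusted p = 5.44e-05), and after scaling by 2.31 (adjusted p = 0.000846), 1.97 (adjusted p = 0.00216) and 1.90 (adjusted p = 0.00374). Macrophages also express these genes, and of the 8 macrophage markers 7 were tested in the same comparison and rose, 4 of them after scaling (70.4% and 24.5% of all genes did). Their part in the values was not tested. With bleomycin in both lines, 6 of 8 were higher in Acta2-tdT as deposited and 1 after scaling (71.0% and 17.2% of all genes were), Mfge8, which encodes a bridging protein for cell debris and collagen, by 1.97 (adjusted p = 0.0396). With bleomycin in Pdgfra-tdT, 6 were tested and none was called on either scale. Here Ctsd was at 4.28 (adjusted p = 0.543) and Ctsb at 2.84 (adjusted p = 0.791). With saline, 5 were tested between the lines and none was called on either scale.

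The genes most like each member over the 16 mice were found by the root mean square difference of centred log2 profiles of scaled FPKM + 1, among 10363 other nuclear protein-coding genes. The nearest to Timp1 were Col1a1 and Col1a2, the chains of collagen type I, at 0.45 and 0.59, against a spread of 2.32 of Timp1 itself. The nearest to Mrc2 were Col12a1 and Hspg2, both matrix genes, at 0.13 and 0.14 against 0.49. As deposited, Mrc2 reached 1 FPKM only in Acta2-tdT bleomycin, so this likeness rests mainly on that group. Mmp2 had Sec61a1 and Mmp14 at 0.30 and 0.33 against 1.40, and Mmp14 had Maged1 and Sec61a1, both at 0.30, against 1.44. Timp3 had Gstt1 and Lmcd1 at 0.37 and 0.42 against 1.41, and Timp2 had Maged2, next to the nearest, at 0.25 against 1.05. Mmp9 had AB124611 and Adck5 at 0.32 and 0.34 against 0.84, Mmp3 had Tmem167b and Bckdhb at 0.29 and 0.30 against 0.45, and Mmp19 had Hvcn1 and Acsl5 at 0.24 and 0.27 against 0.46. For members of small spread, such as Mmp3 and Mmp19, many genes lie this near.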

How the data were processed

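RNA of tdTomato-positive lung cells from 16 mice was sequenced with SmartSeq2 on Illumina HiSeq. Per the study's methods and the submitters' processing notes, the authors aligned reads to mm10 with TopHat2 2.1.1 and Bowtie2 and estimated transcript levels with Cufflinks 2.1.1, and the deposited values are FPKM per gene and mouse. Whether counting used strand is not given in the sources used here.

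Rows of one gene were summed. The log2(FPKM + 1) values were fitted in limma 3.58.1 (R 4.3.3; lmFit and eBayes, variance trend on), and p was adjusted by Benjamini-Hochberg over all genes tested, with a threshold of 0.05. A gene was tested if 4 or more mice of the comparison reached an FPKM of 1, and genes for which Cufflinks gave no valid estimate were left out. FPKM were also scaled to a nuclear protein-coding sum of 51979. A fold change on this scale understates the change of low genes. The p-values measure the spread between mice. The fits were tested on simulated data.

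The members and the gene lists were chosen with earlier results of these data known. Of each list, at most the 3 called genes of largest log2 difference per comparison were named. Mmp8 and Mmp12 in further comparisons, Mmp15, Mmp28, Timp4, the remaining AP-1 subunits and the cathepsins in Pdgfra-tdT were named after their values were seen. Some genes of the lists and of the similarity search are not reported here. Marker lists covered macrophages, neutrophils, leukocytes, lymphocytes, endothelium, epithelium, fibroblasts and smooth muscle. Alternatives were another pseudocount (0.1), other filters, scaling, quantile normalization, another variance model, a replicate block and leaving out each mouse. Promoter sequences came from RefSeq.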

Additional observations from a re-analysis of the deposited data

Results flagged for a closer look

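In 8 of the 40 sets of 4 values (10 members in 4 groups), 1 mouse stood apart from the others by its deposited FPKM. The set was chosen on these FPKM, so the cases are a description and no test, and gaps as wide arise by chance in about 1 in 20 sets. All 8 cases were in the Pdgfra-tdT groups, in 4 mice. Mouse 3 of the saline group was high in Mmp2 (4.17) and Timp2 (6.45), mouse 1 was high in Mmp9 (0.132) and low in Timp1 (1.12), and mouse 4 was high in Mrc2 (0.103). Mouse 5 of the bleomycin group was high in Mmp2 (19.1), Mmp14 (16.5) and Timp3 (10.4). Saline mouse 3 and bleomycin mouse 5 were also the mice with the highest Pecam1, 39.1 and 65.9 FPKM. They also had the largest nuclear protein-coding sums of their groups, 61168 and 147467. After scaling, 1 of the 8 cases still stood apart (Timp2 in saline mouse 3), and none of those of bleomycin mouse 5 did, with 4 cases in all on that scale. The part of endothelial cells was not tested.

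The interaction of line and treatment (limma, over all 16 mice) was called for 7 members and 11 of the genes named from the lists. Of all genes, 36.6% were called higher as deposited and 1.39% after scaling. For the members, chosen on these values, the call is no test. As deposited, the interaction log2 was 7.81 for Timp1, 4.93 for Mmp2, 4.71 for Mmp14, 3.17 for Mrc2, 2.16 for Mmp9, 1.74 for Mmp19 and 1.68 for Mmp3. Among other metalloproteinases it was 4.03 for Mmp23, 2.53 for Mmp10 and 2.28 for Mmp8. Among regulators it was 6.69 for Serpine2 and 4.13 for Plat. Among genes of collagen uptake and breakdown it was 3.01 for Lgmn, 2.83 for Pepd and 1.81 for Mrc1, and among AP-1 subunits 3.31 for Fosl1, 2.71 for Junb and 1.95 for Fosl2. After scaling, the call held for Timp1 (5.47), Mrc2 (1.07), Serpine2 (4.27), Plat (1.75), Fosl1 (1.07) and Mmp10 (0.80). Mrc2, Fosl1 and Mmp10 reached 1 FPKM only in Acta2-tdT bleomycin. They passed the filter only through that group, so no support is drawn from their calls. The members were chosen on these values, so their interactions are a description.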

How the results depend on the processing

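Of 591 recomputed log2 differences of the members, 543 kept direction and side of the threshold, 22 lost the call, 8 gained it and 18 changed sign. After scaling the sign changed for Timp3 (-1.13) and Mmp9 (-0.24) with bleomycin in Acta2-tdT, for Mmp19 between the lines with bleomycin (-0.28), for the interactions of Mmp3 (-0.24), Mmp9 (-0.11), Mmp19 (-0.069) and Timp3 (-1.34), and for Timp1 between the saline lines (-0.011) and with bleomycin in Pdgfra-tdT (-0.44). Quantile normalization turned Timp3 (-0.71; interaction -0.78), Mmp19 (-0.38) and Timp1 (-0.082 and -0.32) in the same comparisons. The latter Timp1 differences, near 0, also turned without Pdgfra-tdT saline mouse 1 (-0.21 and -0.23), and that in Pdgfra-tdT without bleomycin mouse 5 (-0.55) or both marker-rich mice (-0.43). With 1 mouse left out they were -0.21 to 0.33 between the saline lines and -0.55 to 0.73 in Pdgfra-tdT. In the saline groups 237 genes were called between the lines, against 59 with no filter, 49 with a mean FPKM of at least 5, 126 with all 16 mice in 1 fit, and 14 (without Acta2-tdT saline mouse 3) to 2141 (without Pdgfra-tdT saline mouse 3) with 1 mouse left out. In the bleomycin groups 9553 were called, against 4726 with the mean filter, 4165 after scaling, 4185 after quantile normalization, and 6111 to 9952 with 1 mouse left out, lowest without Acta2-tdT bleomycin mouse 8 and 6155 without mouse 7. With bleomycin in Acta2-tdT, 10848 were called (8811 higher), against 5069 with the mean filter, 7128 after scaling (3064 higher), and 6973 (without bleomycin mouse 8) to 10143 with 1 mouse left out, with 7006 without mouse 7. With bleomycin in Pdgfra-tdT, limma called 9 genes, and 312 had an unadjusted p under 0.05. It called 2 with no filter, 15 with all 16 mice in 1 fit, 0 (without any 1 saline mouse) to 69 (without bleomycin mouse 8), and 0 without saline mouse 3 and bleomycin mouse 5 together (503 at an unadjusted p under 0.05), an alternative added after seeing the data. For the interaction 6605 were called, against 3463 with a pseudocount of 0.1, 1644 with the mean filter, 345 after scaling, 1595 after quantile normalization, and 3739 (without Acta2-tdT bleomycin mouse 7; 3740 without mouse 8) to 9166 with 1 mouse left out. Fewer genes were tested with the mean filter and with a mouse left out. For the other settings the cause was not tested.

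The difference in the log2 ratio of proteases to inhibitors was -0.85 between the lines with saline (-1.15 to -0.48 with 1 mouse left out), -2.38 between the lines with bleomycin (-2.55 to -2.19), -0.54 with bleomycin in Acta2-tdT (-0.70 to -0.35) and 0.99 in Pdgfra-tdT (0.69 to 1.36). Without Mmp14 and Timp1 these were -2.44, -0.30, 2.33 and 0.18. With all metalloproteinase and TIMP genes it was -3.79 between the lines with bleomycin and -1.12 with bleomycin in Acta2-tdT. From mean log2 values it was -1.28 with bleomycin in Acta2-tdT and -0.002 in Pdgfra-tdT.

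The fit with the replicate block called 36 genes between the lines with saline. The numbers were not taken as pairing mice, since same-numbered mice of the lines deviated together with correlations of only -0.25 to 0.13 across genes. With bleomycin the replicate block called 9379 genes. FPKM hold no counts, so no counting interval is given, and members under 1 FPKM rest on few fragments.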
